A study of Mus musculus with 8 samples.

Results

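Matrix metalloproteinases (MMPs) and their tissue inhibitors (TIMPs) were examined as a group of 10 genes, chosen by symbol: Mmp2, Mmp9, Mmp12, Mmp14, Mmp16, Mmp17, Timp1, Timp2, Timp3 and Timp4. All 10 were found in both deposited tables, among 54532 genes listed. RNA-seq was performed on 8 libraries of brain from C57BL/6 mice on Day 21. The PTS + RS group (2 libraries, labelled cortex) had a photothrombotic stroke, in which a photosensitive dye and cold light close vessels in the right cortex, followed by restraint stress in a tube. The RS group (2 libraries, labelled cortex) had restraint stress without stroke. The HDAC3 inhibitor group and the NaCl group (2 libraries each) were both PTS + RS mice, and the inhibitor was RGFP109, given under the skin at 60 mg/kg daily for 2 weeks. The control is labelled NaCl, while RGFP109 is described in DMSO and a cyclodextrin, so that drug and solvent cannot be told apart if the control was saline. In these groups replicate 1 is labelled cortex and replicate 2 amygdala. Every mouse was thus restrained, and no unstressed or sham group was sequenced in the 8 libraries. The methods mention pooling of samples without saying how many mice a library holds, so p-values measure the spread between libraries, which may be smaller than that between mice. The study asked how the cortex changes when stroke precedes stress, and whether inhibition of the histone deacetylase HDAC3 alters that state.

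MMPs are zinc-dependent proteases that cut collagens, laminins, proteoglycans and surface proteins. Most are made as inactive precursors and need cleavage of a propeptide, by furin, by plasmin or by each other. TIMPs bind the active site and block it. In brain, MMPs are known for opening the basal lamina of vessels after ischaemia and for later remodelling of matrix around vessels and synapses.

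The starts of the genes are shown for the members the results turn on: Mmp12, which alone passed the test between PTS + RS and RS, Timp2, the most abundant, and Timp1, with the largest fold change among the TIMPs. Each sequence is the 250 bases before a RefSeq start (GRCm38.p6), read 5′ to 3′ on the gene's strand. Capitals mark a match to a searched motif, and Mmp12 has 2 listed starts.
Mmp12, downstream start (chr9:7347124-7347373, plus strand): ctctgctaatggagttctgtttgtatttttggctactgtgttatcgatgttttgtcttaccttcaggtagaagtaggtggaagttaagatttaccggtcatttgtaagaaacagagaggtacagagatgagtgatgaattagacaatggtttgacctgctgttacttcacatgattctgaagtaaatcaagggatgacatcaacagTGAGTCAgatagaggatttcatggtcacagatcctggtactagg
Mmp12, upstream start (chr9:7344147-7344396, plus strand): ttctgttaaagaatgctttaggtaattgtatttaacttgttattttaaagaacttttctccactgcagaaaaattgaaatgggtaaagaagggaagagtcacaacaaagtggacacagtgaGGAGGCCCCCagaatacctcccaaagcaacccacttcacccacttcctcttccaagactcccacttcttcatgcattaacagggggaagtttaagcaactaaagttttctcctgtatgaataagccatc
Timp1 (chrX:20869916-20870165, plus strand): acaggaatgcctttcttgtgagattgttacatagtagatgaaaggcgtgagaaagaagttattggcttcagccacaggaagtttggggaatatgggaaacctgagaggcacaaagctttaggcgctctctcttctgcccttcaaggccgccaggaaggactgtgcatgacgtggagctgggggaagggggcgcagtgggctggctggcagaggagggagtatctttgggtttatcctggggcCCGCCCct
Timp2 (chr11:118355412-118355661, minus strand): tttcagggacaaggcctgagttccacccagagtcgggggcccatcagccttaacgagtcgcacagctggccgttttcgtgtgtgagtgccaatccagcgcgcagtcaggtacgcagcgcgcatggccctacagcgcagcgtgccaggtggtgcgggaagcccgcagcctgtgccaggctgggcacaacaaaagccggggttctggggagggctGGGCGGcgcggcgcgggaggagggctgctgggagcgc
The capitals in the downstream window of Mmp12 are the AP-1 letters TGAGTCA, which begin 44 bases before the start. This motif was found in 4.463% of 32851 promoters of the same length. The upstream window holds a match to the NF-kappaB consensus on the opposite strand, 129 bases before the start, as did 7.251% of promoters. In Timp1 and Timp2 the capitals are the GC box GGGCGG or its complement, 8 and 37 bases before the start, a motif in 32.74% of promoters. Timp3 and Mmp14 also held it. No window of the 6 members with an entry, Mmp12, Mmp14, Timp1, Timp2, Timp3 and Timp4, held TATAAA, which 12.37% of promoters did. Both strands were searched, and a match is a description of letters, not of binding.

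Before the results, several libraries stood apart from their labels. Between 15902013 and 21712033 reads were counted in each library. NaCl replicate 1 had a summed level of olfactory bulb markers (8 genes) of 1523 CPM (counts scaled to library size), against 20.4 to 47.0 in the other 7 libraries, and of amygdala markers of 30.3 CPM, against 117 to 132. The libraries labelled amygdala had striatum markers at 1322 and 1454 CPM, against 167 to 247 elsewhere, while their amygdala markers, at 117 and 120 CPM, were no higher than in 5 of the 6 libraries labelled cortex. The amygdala genes Otp and Sim1 were under 0.2 CPM in all 8 libraries. Lypd1 (51.0 and 47.2 CPM) and Tac2 (4.86 and 6.52 CPM) were highest in the libraries labelled amygdala, inhibitor and NaCl. The rest of the list, Rspo2, Prkcd, Cyp26b1 and Dlk1, were not highest there. Cortex markers were present in every library, at 372 to 792 CPM. Choroid plexus markers varied from 16.0 to 3826 CPM, and PTS + RS replicate 2, at 49.7 CPM, stood below the other cortex libraries of its table. The tested comparisons were therefore also fitted with each library left out in turn. The libraries labelled amygdala were not left out together, and median levels were taken over all 8 libraries.

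The members covered a wide range of levels. Levels of different genes were compared as FPKM, which corrects for gene length and library size. Timp2, which inhibits secreted MMPs and, with Mmp14, helps to activate the Mmp2 precursor, had a median of 104 FPKM over the 8 libraries and a range of 83.8 to 130 FPKM. Mmp17, a protease held at the cell surface by a lipid anchor, followed with a median of 37.8 FPKM. Its range of 11.7 to 46.8 FPKM did not reach that of Timp2. Timp3, which stays bound to the matrix and also inhibits ADAM proteases, had 9.22 FPKM, and Timp4, the inhibitor with the most restricted expression, 5.49 FPKM. The transmembrane protease Mmp14 had 3.99 FPKM and its relative Mmp16 had 2.63 FPKM. Timp1, an inducible inhibitor, had 2.05 FPKM and the gelatinase Mmp2 had 1.37 FPKM. The other gelatinase, Mmp9, had 0.572 FPKM, with a range of 0.408 to 0.680 FPKM that lay below every library of Mmp2. Macrophage elastase, Mmp12, had the lowest median, 0.143 FPKM, and the widest relative range, from 0 to 1.53 FPKM. Among the 9 pairs of neighbours in this order, 2 had ranges that did not overlap, Timp2 above Mmp17 and Mmp2 above Mmp9. All other neighbours overlapped.

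**Figure D1:**
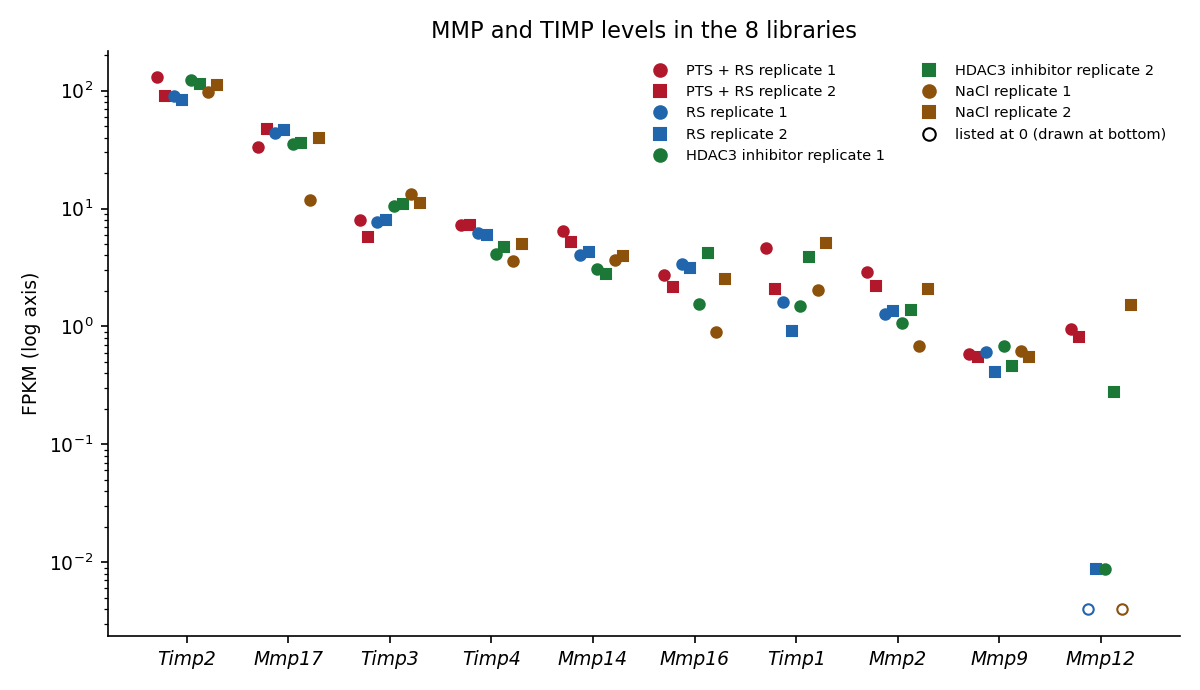
FPKM of each member (log axis) in each of the 8 libraries, ordered by median; colours are groups, circles replicate 1 and squares replicate 2, and open symbols are libraries listed at 0. Mmp12 spans 0 to 1.53 FPKM, while Timp2 stays between 83.8 and 130 FPKM.

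Within each family 1 gene took most of the summed FPKM. Timp2 took 83.7% to 88.6% of the TIMP sum in the 8 libraries. Mmp17 took 66.6% to 84.7% of the sum over the 6 MMPs examined. Its lowest share was in NaCl replicate 1, the library with olfactory bulb markers, where Mmp17 was at 11.7 FPKM and Mmp14 took 20.8% of the sum. The TIMP sum exceeded the MMP sum in every library, by a ratio of 1.77 to 3.35 in 7 libraries and 6.57 in NaCl replicate 1. These ratios describe RNA only. Mmp24, not a member, had a median of 10.6 FPKM, above all MMP members other than Mmp17.

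**Figure D2:**
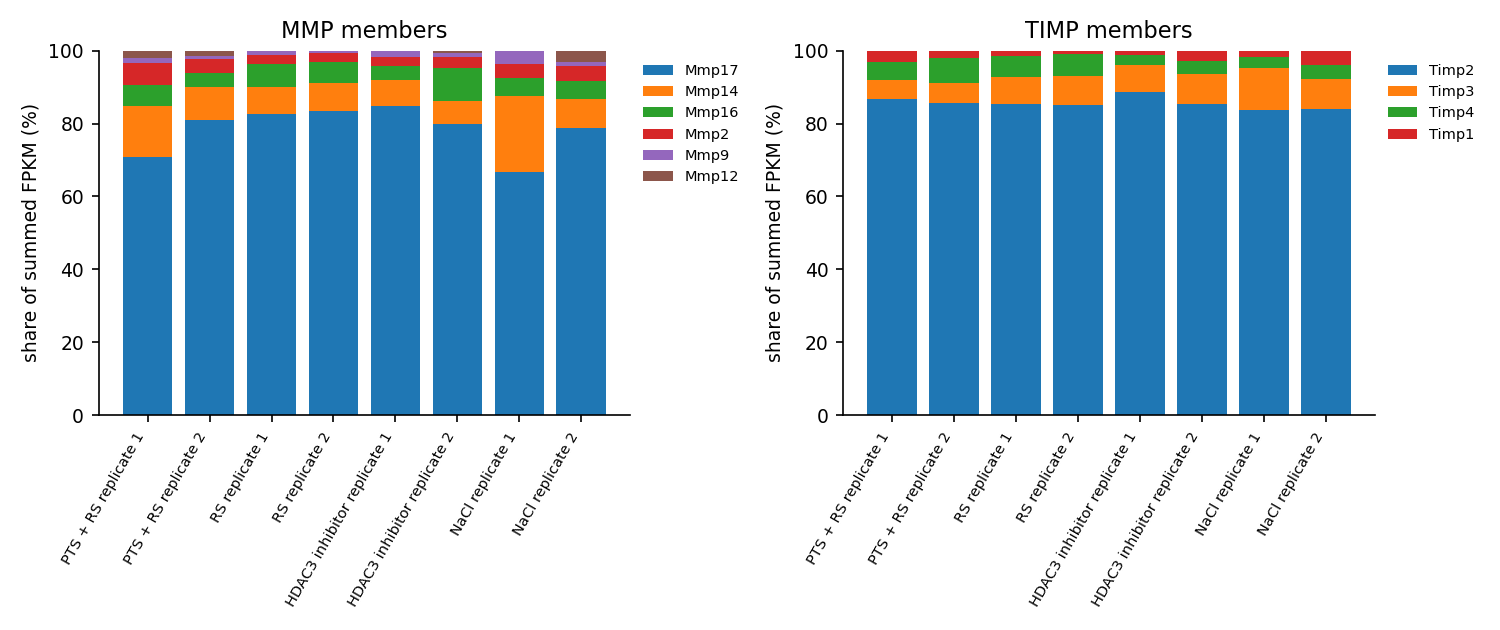
Share of each member in the summed FPKM of the 6 MMPs (left) and the 4 TIMPs (right), in percent, with 1 bar per library. Mmp17 and Timp2 fill most of each bar, and NaCl replicate 1 has the lowest Mmp17 share, 66.6%.

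Between RS and PTS + RS, Mmp12 rose from almost no reads, and no other member passed the test. Counts were tested in edgeR by quasi-likelihood, p-values were adjusted over all 17581 genes tested by the method of Benjamini and Hochberg, and a gene passed at an adjusted p under 0.05. All 10 members were tested, Mmp12 through its counts in the PTS + RS libraries alone. Of the 10 members, 1 passed, against 3.55% of all genes tested (2.96% higher and 0.586% lower, and 2.21% when the log2 fold change also had to be 1 or more in either direction). Fold changes were above 0 for 7 members and below 0 for 3, with a median log2 fold change of 0.30 against -0.0015 over all genes. The CPM of the 2 groups did not overlap for 6 of the 10 members, and the same held for 50.2% of all genes. An unadjusted p under 0.05 was reached by 6 of the 10 members and by 17.9% of all genes.

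Mmp12 (ENSMUSG00000049723; GRCm38 chr9:7344381-7369499, plus strand) encodes an elastase made mainly by macrophages. It had 118 and 99 counts in PTS + RS replicates 1 and 2, or 6.89 and 5.92 CPM. The RS libraries had 0 counts and 1 count, or 0 and 0.063 CPM. Both stroke libraries (here and below, those of the PTS + RS group) were therefore high and both RS libraries were at or near 0. The inhibitor and NaCl mice also had stroke and restraint, yet their libraries labelled cortex were not high. HDAC3 inhibitor replicate 1 had 1 count and NaCl replicate 1, the library with olfactory bulb markers, had 0. Their microglia and macrophage markers summed to 342 and 269 CPM. The log2 fold change was 7.44 ± 0.57 (SE, n = 2 and 2; edgeR adjusted p = 0.0012), a value that depends on how a count near 0 is handled. From the counts alone, 217 against 1, the ratio was 218, with an exact 95% interval of 38.7 to 8643 that covers counting error only. Mmp12 shares 2.17% of its exon bases with Mmp1b on the other strand, and Mmp1b had a median of 0 FPKM.

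Markers of microglia and macrophages moved with Mmp12. Their 10 genes summed to 1144 and 954 CPM in PTS + RS and to 289 and 264 CPM in RS. Of these 10, 9 passed the test, all higher, with a median log2 fold change of 1.88. Per 1000 CPM of these markers, Mmp12 stood at 6.02 and 6.21 CPM in PTS + RS and at 0 and 0.239 CPM in RS. In bulk tissue, a change in the number of such cells and a change in RNA per cell cannot be told apart, and the part of cell number in the rise of Mmp12 was not tested. Neutrophil markers, by contrast, summed to 0.817 and 0.359 CPM in PTS + RS and to 0.993 and 0.315 CPM in RS, with Ly6g and Elane at 0 in all 8 libraries. Astrocyte markers summed to 7259 and 5963 CPM in PTS + RS and to 3959 and 4016 CPM in RS, and 4 of 8 passed, all higher.

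The gelatinases gave different values. Mmp2 (ENSMUSG00000031740; chr8:92827291-92853420, plus strand), which cuts basal lamina collagen, stood at 9.86 and 7.42 CPM in PTS + RS and at 4.30 and 4.61 CPM in RS. The groups did not overlap, with a log2 fold change of 0.96 ± 0.22 (SE, n = 2 and 2) that missed the threshold (edgeR adjusted p = 0.068). Mmp9 (ENSMUSG00000017737; chr2:164940780-164955850, plus strand), which neutrophils store in granules, stood at 2.10 and 1.97 CPM in PTS + RS and at 2.15 and 1.45 CPM in RS. Its groups overlapped, and the log2 fold change was 0.17 ± 0.34 (SE; edgeR adjusted p = 0.85). Mmp9 had 23 to 39 counts per library.

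The membrane-bound members had values in both directions. Mmp14 (ENSMUSG00000000957; chr14:54431612-54445364, plus strand), the activator of the Mmp2 precursor, had 39.1 and 31.2 CPM in PTS + RS and 24.1 and 25.8 CPM in RS. Both stroke libraries were higher, with a log2 fold change of 0.50 ± 0.13 (SE; edgeR adjusted p = 0.11). Mmp16 (ENSMUSG00000028226; chr4:17852893-18119145, plus strand) had 23.8 and 18.9 CPM in PTS + RS and 29.6 and 27.2 CPM in RS. Both stroke libraries were lower, with a log2 fold change of -0.41 ± 0.14 (SE; edgeR adjusted p = 0.19). Mmp17 (ENSMUSG00000029436; chr5:129584169-129611099, plus strand) had 222 and 311 CPM in PTS + RS and 293 and 308 CPM in RS, so that the stroke libraries lay on both sides of the RS libraries. Its log2 fold change was -0.17 ± 0.15 (SE; edgeR adjusted p = 0.60).

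Among the inhibitors, Timp1 (ENSMUSG00000001131; chrX:20870166-20874735, plus strand), known for its induction in injured tissue, had 71 and 31 counts in PTS + RS, or 4.14 and 1.86 CPM, and 26 and 13 counts in RS, or 1.43 and 0.820 CPM. The groups did not overlap, but the lower stroke library stood close to the higher RS library. The log2 fold change was 1.39 ± 0.49 (SE; edgeR adjusted p = 0.20), and it was 0.70 without PTS + RS replicate 1 and 1.85 without PTS + RS replicate 2. Timp4 (ENSMUSG00000030317; chr6:115241892-115252205, minus strand) had 42.9 and 43.1 CPM in PTS + RS and 36.5 and 35.3 CPM in RS, a narrow gap with a log2 fold change of 0.26 ± 0.09 (SE; edgeR adjusted p = 0.20). Timp2 (ENSMUSG00000017466; chr11:118301069-118355740, minus strand) had 510 and 353 CPM in PTS + RS and 355 and 328 CPM in RS, so only replicate 1 of the stroke group stood apart. Its log2 fold change was 0.34 ± 0.16 (SE; edgeR adjusted p = 0.34). Timp3 (ENSMUSG00000020044; chr10:86300372-86349506, plus strand) had 66.1 and 46.9 CPM in PTS + RS and 62.7 and 64.7 CPM in RS. Only PTS + RS replicate 2, the library low in choroid plexus markers, was low, and the log2 fold change was -0.17 ± 0.15 (SE; edgeR adjusted p = 0.61). The part of choroid plexus RNA in these values was not tested.

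Leaving out either PTS + RS library moved the count of members that passed, and why it moved was not tested. Without PTS + RS replicate 2, 6 members passed: Mmp2, Mmp12, Mmp14, Timp1 and Timp2 were higher and Mmp17 was lower. Calls over all genes also went up in that fit, to 14.6% of 18374. Without PTS + RS replicate 1, 3 passed, with Mmp12 higher and Mmp16 and Timp3 lower, against 9.7% of 18250 genes. Each of these fits has a lone stroke library, which is assumed to vary like the RS pair. Mmp12 was the only member that passed in both.

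Several inhibitors lie inside genes of synaptic vesicle proteins. Timp1 lies in Syn1, Timp3 in Syn3 and Timp4 in Syn2, each on the opposite strand. Timp1 shares no exon bases with Syn1, which had a median of 187 FPKM. Timp4 shares 1.53% of its exon bases with Syn2, and Timp3 shares 21.3% with Syn3, a gene at 1.03 FPKM. The strand setting of the counting is not given in the sources used here, so reads on shared bases cannot be assigned with certainty. Syn1, Syn2 and Syn3 had log2 fold changes of 0.077, -0.019 and 0.018 between PTS + RS and RS, none of which passed.

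**Figure D3:**
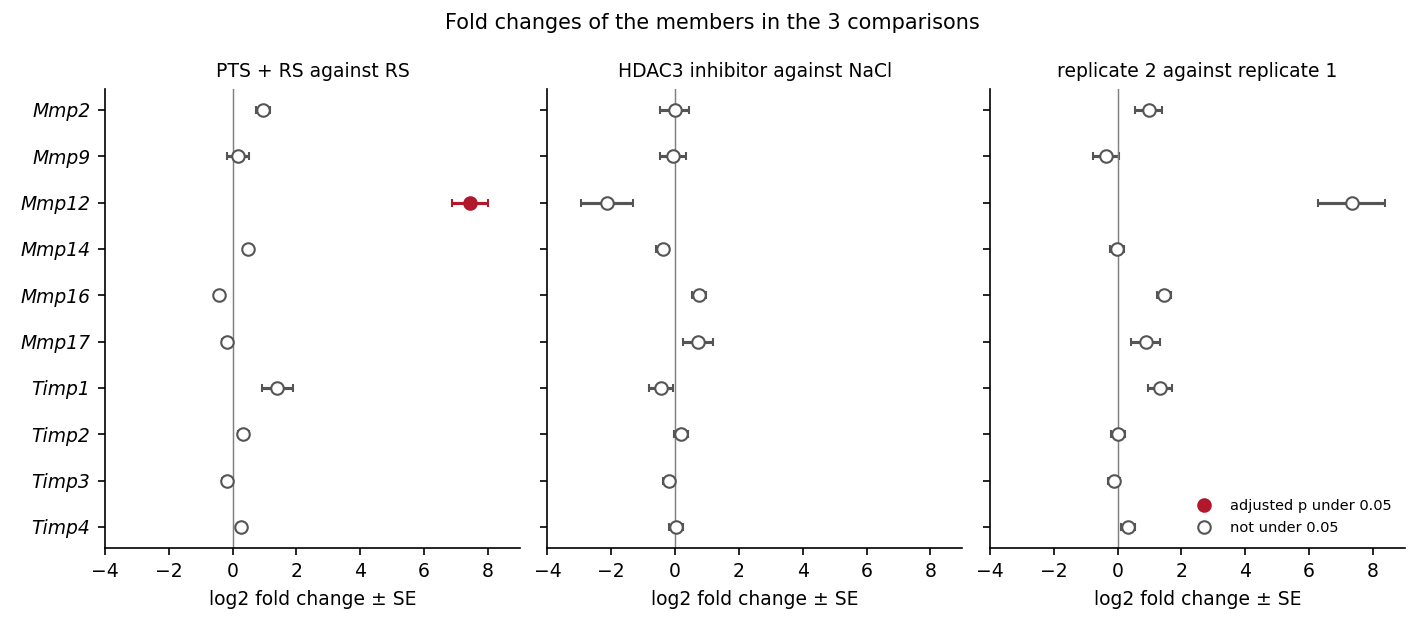
Log2 fold change of each member with its standard error (bars) in the comparisons of PTS + RS with RS, HDAC3 inhibitor with NaCl, and replicate 2 with replicate 1, each from 4 libraries. Filled red marks an adjusted p under 0.05, which only Mmp12 in PTS + RS against RS reached, at 7.44.

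In the lists of related genes, the regulators of the plasmin system and of protease clearance held the calls. Of 13 tested genes of activation and clearance (14 listed), 3 passed in PTS + RS against RS, all higher. A2m, a plasma inhibitor that traps proteases of many classes, had 73.2 and 52.0 CPM in PTS + RS and 13.5 and 17.7 CPM in RS (log2 fold change 2.01 ± 0.20, SE; edgeR adjusted p = 0.0031). Plau, the urokinase that turns plasminogen into plasmin, had 14.9 and 8.26 CPM in PTS + RS and 2.81 and 2.02 CPM in RS (log2 fold change 2.25 ± 0.34, SE; edgeR adjusted p = 0.016). Serpine2, an inhibitor of plasminogen activators and thrombin, had 224 and 203 CPM in PTS + RS and 130 and 126 CPM in RS (log2 fold change 0.74 ± 0.08, SE; edgeR adjusted p = 0.0042). In all 3 genes both stroke libraries stood above both RS libraries. The list's median log2 fold change was 0.30. By edgeR, none of 6 tested other MMPs (17 listed), none of 8 ADAM proteases and none of 18 tested ADAMTS proteases (19 listed) passed, with 1, 5 and 2 genes at an unadjusted p under 0.05 (17.9% over all genes), and DESeq2 and limma-voom passed none of them either.

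In the comparison of the HDAC3 inhibitor with NaCl, no member passed. The fit held the replicate number, which is the labelled tissue, as a block. Fits that left out a library had no block, so drug and replicate number are mixed in them. By edgeR, 0 of 10 members passed, and 0% of 17565 genes tested did, with 1 member and 1.48% of genes at an unadjusted p under 0.05. DESeq2 and limma-voom also passed 0 members. Of the fold changes, 4 were above 0 and 6 below, with a median of -0.037 against -0.012 over all genes, and 3 members did not overlap between the groups, against 26.6% of genes. Leaving out any of the 4 libraries, NaCl replicate 1 included, left the count at 0. By edgeR, DESeq2 and limma-voom, no gene of the lists of other MMPs, ADAM and ADAMTS proteases and activation and clearance passed, with 2, 0, 0 and 1 genes at an unadjusted p under 0.05 in edgeR.

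Mmp12 showed the widest split by replicate number. The HDAC3 inhibitor libraries had 1 and 43 counts in replicates 1 and 2, or 0.063 and 2.01 CPM. The NaCl libraries had 0 and 204 counts, or 0 and 11.1 CPM. Only the replicate 2 libraries thus held more than 1 read, and of these the inhibitor library was lower. The log2 fold change was -2.13 ± 0.83 (SE, n = 2 and 2; edgeR adjusted p = 0.9999). It was 7.30 when NaCl replicate 2 was left out, in a fit without the block. That fit set both inhibitor libraries against NaCl replicate 1 alone, so drug and replicate number are mixed in it. Microglia and macrophage markers summed to 342 and 462 CPM with the inhibitor and 269 and 498 CPM with NaCl, so that Mmp12 per 1000 CPM of them was 4.35 CPM in inhibitor replicate 2 and 22.3 CPM in NaCl replicate 2. With 1 library on each side of this pair, the difference has no replicate check.

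Mmp16 was the member with an unadjusted p under 0.05. It had 13.6 and 36.1 CPM with the inhibitor and 7.91 and 22.1 CPM with NaCl, higher with the inhibitor within each replicate number. The log2 fold change was 0.74 ± 0.21 (SE; edgeR adjusted p = 0.9999). Within replicate numbers 1 and 2 the log2 ratio (prior count 2) was 0.77 and 0.70. In fits without the block, the log2 fold change was -0.15 without inhibitor replicate 2 and 0.17 without NaCl replicate 1. Drug and replicate number are mixed in those fits. Mmp14 had 18.4 and 16.5 CPM with the inhibitor and 22.1 and 23.7 CPM with NaCl, lower in both inhibitor libraries, with a log2 fold change of -0.39 ± 0.22 (SE). Mmp17 had 235 and 239 CPM with the inhibitor and 78.6 and 262 CPM with NaCl. Its log2 fold change of 0.72 ± 0.46 (SE) rested on NaCl replicate 1. It was -0.15 without that library, in a fit without the block, and the log2 ratio within replicate 2 was -0.13.

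No TIMP passed between these groups. Timp1 had 1.33 and 3.41 CPM with the HDAC3 inhibitor and 1.82 and 4.57 CPM with NaCl, and the replicate 2 libraries were the higher in each group. Timp2 had 485 and 443 CPM with the inhibitor and 381 and 434 CPM with NaCl. Timp3 had 84.9 and 88.3 CPM with the inhibitor and 109 and 90.3 CPM with NaCl. These last genes did not overlap between the groups, with log2 fold changes of 0.19 ± 0.22 and -0.20 ± 0.19 (SE). Timp4 had 24.1 to 29.6 CPM, Mmp2 had 2.33 to 7.01 CPM and Mmp9 had 1.64 to 2.41 CPM over the 4 libraries, each with overlapping groups.

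The other coefficient of that fit compared replicate 2 with replicate 1, that is, the libraries labelled amygdala with those labelled cortex. By edgeR 0 of 10 members passed, against 0% of 17565 genes, with 3 members and 9.15% of genes at an unadjusted p under 0.05. DESeq2 passed 2 members, Mmp12 and Mmp16, and limma-voom 0. The replicate 2 and replicate 1 libraries did not overlap for 7 members, against 44% of all genes. Mmp12 entered this test only through its counts in replicate 2. With 247 counts against 1, it had a ratio of 207 (exact 95% interval 36.8 to 8209, counting error only; edgeR adjusted p = 0.31). Mmp16 had a log2 fold change of 1.45 ± 0.21 (SE; edgeR adjusted p = 0.33) and Timp1 of 1.34 ± 0.38 (SE; edgeR adjusted p = 0.46). Without NaCl replicate 1, these 3 members passed, and without HDAC3 inhibitor replicate 1, Mmp2 and Mmp17 passed besides, all higher in replicate 2. Calls over all genes went from 0% to 13.8% and 28.7% in these fits. Each of these fits had a lone replicate 1 library and no treatment term. Without HDAC3 inhibitor replicate 1, that library was NaCl replicate 1, the one with olfactory bulb markers. It had Mmp17 at 78.6 CPM, while inhibitor replicate 1 had 235 CPM, against 239 and 262 CPM in replicate 2. With all 4 libraries, edgeR passed no gene of the 4 lists of related genes, with 2, 0, 3 and 2 genes at an unadjusted p under 0.05. Limma-voom passed none. DESeq2 passed A2m, at 9.32 and 29.3 CPM with the inhibitor and 5.18 and 32.8 CPM with NaCl in replicates 1 and 2. The striatum markers of the replicate 2 libraries move with this contrast, and region and replicate number cannot be told apart.

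**Figure D4:**
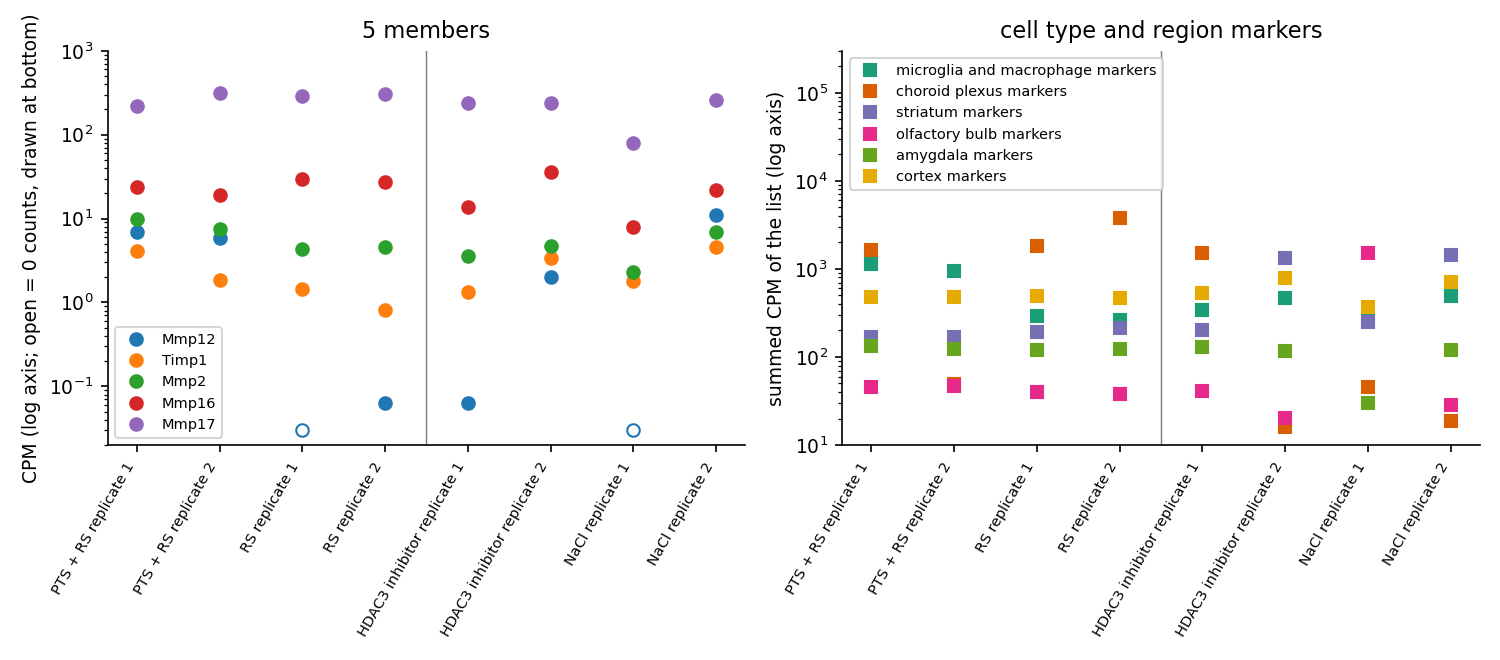
CPM of 5 members (left) and summed CPM of 6 marker lists (right), both on log axes, in the 8 libraries; the vertical line separates the 2 tables, which were normalized separately, and open circles are 0 counts. Mmp12 exceeds 1 CPM in both PTS + RS libraries and both replicate 2 libraries, and NaCl replicate 1 alone has olfactory bulb markers at 1523 CPM.

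Over the 8 libraries the genes whose pattern was most like that of Mmp12 were Ccl6, a chemokine (Pearson r = 0.99), Cd5l, a protein secreted by macrophages (r = 0.98), and Tnfaip8l2 (r = 0.98), of 16947 genes tested in both tables. The correlations are of log2 CPM with a prior count of 2, a description over 8 points that share tables and groups. Scaled over both tables, and with this prior count included, Ccl6 had 6.98 and 7.21 CPM in PTS + RS. On the same scale it had 8.46 CPM in NaCl replicate 2 and 0.947 to 3.63 CPM in the other 5 libraries. Its 3.63 CPM were in inhibitor replicate 2, where Mmp12 also stood below NaCl replicate 2 and both PTS + RS libraries and above the rest.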

How the data were processed

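RNA was measured by RNA-seq in 8 mouse brain libraries. The authors aligned reads to GRCm38 with STAR (v.2.4.0) and generated counts per gene with HTSeq (v.0.6.1), deposited without normalization. They also deposited FPKM, which equalled the count over gene length and a factor per library. The labels name a directional kit and the methods another kit. Their fold changes, p-values and group means, and 8 per-library columns of a normalized signal, were not used.

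Genes of the HDAC3 inhibitor table were matched to the other by position. Low counts were removed with filterByExpr, and libraries were scaled by TMM (edgeR 4.0.16, R 4.3.3). Each table was fitted separately by quasi-likelihood, for HDAC3 inhibitor against NaCl with replicate number, the labelled tissue, as a block (the deviations of same-numbered libraries correlated at 0.30). RLE scaling, no filter, DESeq2 1.42.0, limma 3.58.1 (voom, and log2(FPKM + 1) or log2(FPKM + 0.1)), the block and left-out libraries were alternatives. Fits with a library left out dropped the block for HDAC3 inhibitor against NaCl. They dropped the treatment term for replicate 2 against replicate 1. The fits were tested on simulated data with a log2 fold change of 2. They recovered 97.5% (PTS + RS against RS), 76.4% (HDAC3 inhibitor against NaCl) and 87.9% (replicate 2 against replicate 1) of changed genes. Of the genes they called, 7.62%, 0% and 5.91% were unchanged. The simulation gave every gene the same relative spread, no difference between replicate numbers and no outlying library. Its rates need not hold for these data or for smaller changes. Members and gene lists were chosen with earlier results of these data known, and the olfactory bulb list after its library was seen. Named genes are the members, list genes that passed or had the highest FPKM, and the 3 genes most like a member that passed. Intervals on counts cover counting error only. A result of a single gene is not reported here.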

Additional observations from a re-analysis of the deposited data

Results flagged for a closer look

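Within replicate numbers, 5 members had opposite signs for the HDAC3 inhibitor over NaCl, 1 library against 1, so the difference between the numbers was not tested. The log2 ratio (prior count 2) of Mmp17 was 1.58 in replicate 1 and -0.13 in replicate 2. For Mmp2 it was 0.61 and -0.57, and for Mmp12, with 1 count against 0 in replicate 1, 0.66 and -2.40. Mmp9 had 0.11 and -0.24, and Timp4 had 0.17 and -0.10. Replicate 1 of NaCl is the library with olfactory bulb markers at 1523 CPM, and its part in these signs was not tested.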

How the results depend on the processing

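Mmp12 passed in PTS + RS against RS under every alternative run, with a log2 fold change from 0.90 (on FPKM + 1) to 9.79 and an adjusted p from 4.1e-37 to 0.018. The number of members that passed there stayed at 1 with RLE, DESeq2, limma-voom, both FPKM scales and a fold limit. It was 5 with no filter (Mmp2, Mmp12, Mmp14, Timp1 and Timp2, all higher; 1119 genes higher and 716 lower of 30105) and 1 to 6 with a library left out (2.01% to 14.6% of all genes). The replicate numbers do not pair these libraries (correlation of deviations 0.035), and with the replicate block the count stayed at 1, with 687 genes higher and 228 lower against 521 and 103 without it. For HDAC3 inhibitor against NaCl the count was 0 under each alternative, also with no replicate block. Over all genes DESeq2 called 6 lower there, no filter 4 lower, and leaving out NaCl replicate 2 gave 15 higher and 78 lower. For replicate 2 against replicate 1, 2 members passed with no filter and 2 with DESeq2 (Mmp12 and Mmp16), and 0 to 5 with a library left out. The all-gene counts there were 154 higher and 53 lower by DESeq2 and 187 and 53 with no filter. No cause of these differences was tested. Fits without a library have fewer samples. They also lack the block for HDAC3 inhibitor against NaCl, and the treatment term for replicate 2 against replicate 1.

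Directions turned for several members. Mmp2 in HDAC3 inhibitor against NaCl was 0.0032 with RLE, 0.00040 with no filter, 0.016 with DESeq2 and 0.016 on log2(FPKM + 0.1). With a library left out, log2 fold changes in PTS + RS against RS ran from -0.084 to 0.48 (Mmp9), -0.44 to 0.050 (Mmp17) and -0.44 to 0.050 (Timp3). In HDAC3 inhibitor against NaCl they ran from -0.76 to 0.84 (Mmp2), -0.35 to 0.21 (Mmp9), -6.30 to 7.30 (Mmp12), -0.15 to 1.67 (Mmp16), -0.15 to 1.60 (Mmp17), -1.26 to 0.41 (Timp1) and -0.20 to 0.28 (Timp4). In replicate 2 against replicate 1 they ran from -0.28 to 0.23 (Mmp14), -0.13 to 0.21 (Timp2) and -0.29 to 0.085 (Timp3). All other single-member values kept their direction. The left-out fits of HDAC3 inhibitor against NaCl had no block, so drug and replicate number are mixed in those ranges. Those of replicate 2 against replicate 1 had no treatment term. Depth limits Mmp12 (0 or 1 count in 4 libraries), Timp1 (13 to 84 counts) and Mmp9 (23 to 39 counts).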

Other observations

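Mmp3, stromelysin, was not among the members and was chosen after its values were seen. It had 3 and 3 counts in PTS + RS and 0 and 0 in RS. The HDAC3 inhibitor libraries had 0 and 23 counts in replicates 1 and 2, and the NaCl libraries 0 and 110. Reads were thus found in the same 4 libraries that held more than 1 read of Mmp12, but their order differed: Mmp3 was at 5.98 CPM in NaCl replicate 2, 1.08 CPM in inhibitor replicate 2 and 0.175 and 0.180 CPM in PTS + RS.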
